A study of Mus musculus with 12 samples.

Results

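The 8 genes described here encode the receptors through which sensory neurons receive neurotrophins and ligands of the GDNF family, together with 1 of the ligands. They are Ntrk2, Ntrk3, Ngfr, Ret, Gfra1, Gfra2, Gfra3 and Bdnf, chosen by name, and they are 8 of the 35583 genes to which transcripts could be assigned. Poly(A) RNA was measured in dorsal root ganglia, which hold the cell bodies of sensory neurons, from 24-week-old YAC Q84 and wild-type (WT) mice. A yeast artificial chromosome brings human ATXN3 with the expanded CAG repeat of spinocerebellar ataxia type 3 into the YAC Q84 line. The labels give neither the strain nor the copy number of the transgene, and WT mice carry none by their label. The 12 libraries were labelled as 1 Q84 male, 5 Q84 females, 3 WT males and 3 WT females. Since no label says that each library came from its own animal, p-values measure the spread between libraries.

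Neurotrophins bind Trk receptor tyrosine kinases, and each Trk receptor also signals alongside Ngfr, which binds all neurotrophins. Ligands of the GDNF family bind a GFR alpha co-receptor anchored to the outer membrane, and the complex then activates the kinase Ret. In adult ganglia, Ret and Gfra2 are known from nonpeptidergic nociceptors, Gfra3 from heat-sensitive peptidergic ones, Ntrk2 from fine touch afferents and Ntrk3 from proprioceptors and other large neurons.

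Genotype labels were checked first, with the Atxn3 transcript ENSMUST00000161011.8 of 1000 bases, on which reads of the human transgene can be placed. Its level was 71.4 ± 6.14 TPM (SD, n = 5) in Q84 male 1 and Q84 females 1 to 4, against 0.110 ± 0.151 TPM (SD, n = 5) in WT males 1 to 3 and WT females 1 and 3. With 0.0612 TPM in the library labelled Q84 female 5 and 34.0 TPM in that labelled WT female 2, both went against their label. They are given apart throughout, no library was moved to another group, and each comparison was made in all 12 libraries as labelled and in the 10 others. All 12 libraries matched their sex label in 4 Y-linked genes. Depth lay between 66490481 and 86891563 estimated counts a library. Pan-neuronal markers summed to at least 10036 CPM (counts scaled to a fixed total per library) and myelinating Schwann cell markers to at least 2511 in every library, so the labelled tissue's main cell types were present.

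The coding ends of the Ntrk2 forms are shown because the kinase-coding form passed the test and the truncated forms did not. Ntrk2 lies on chromosome 13. The kinase-coding transcript Ntrk2-201 and the truncated transcript Ntrk2-202 share their first 1394 coding bases. Lower case marks the last 30 shared bases and capitals mark the bases after the forms part. The sequences are from GENCODE M21 transcripts (GRCm38), 5′ to 3′, on the coding strand.
Ntrk2-201: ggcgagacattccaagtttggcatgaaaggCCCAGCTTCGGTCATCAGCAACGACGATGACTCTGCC
Ntrk2-202: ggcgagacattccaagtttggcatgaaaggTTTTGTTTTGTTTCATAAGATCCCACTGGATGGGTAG
After the split, Ntrk2-202 reads 37 bases and ends in a stop codon, while Ntrk2-201 goes on for 1072 bases, which include those encoding the tyrosine kinase domain. A further transcript, Ntrk2-204, has the same coding sequence as Ntrk2-202. Truncated TrkB binds BDNF but has no kinase, and in the brain it is known to be abundant in glia.

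Ret also ends in alternative ways, and its ends are shown for comparison. Ret lies on chromosome 6, and its 2 coding transcripts Ret-201 and Ret-202 share 3191 coding bases. Capitals again mark the bases after the split, given from the same source and down to the stop codon.
Ret-201: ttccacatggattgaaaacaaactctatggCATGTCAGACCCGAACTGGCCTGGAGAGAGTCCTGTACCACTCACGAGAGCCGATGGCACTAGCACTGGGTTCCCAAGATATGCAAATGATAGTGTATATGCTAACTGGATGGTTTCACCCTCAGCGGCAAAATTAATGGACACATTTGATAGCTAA
Ret-202: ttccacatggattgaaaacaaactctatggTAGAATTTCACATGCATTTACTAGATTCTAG
Both Ret forms hold the kinase and differ in the tail that follows it, which is 157 bases in Ret-201 and 31 bases in Ret-202, stop codon included.

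In the 12 libraries as labelled, none of the 8 genes passed the test (edgeR quasi-likelihood, Benjamini-Hochberg adjusted p under 0.05), where 0.0053% of 18875 genes tested did. At an unadjusted p under 0.05 there were 2 of the 8, Ntrk2 and Gfra3, where 14.3% of all genes were. DESeq2 called 0 of the 8, where it called 3.28% of all genes, and limma-voom 0 of the 8, where it called 0.0053%. In the 10 libraries, 4 of the 8 genes passed, where 6.45% of 18721 genes did. Ntrk2, Ngfr and Gfra2 fell in Q84 ganglia, against a background of 4.93% of genes called lower, and Bdnf rose, against 1.52% called higher. Ntrk3, Ret, Gfra1 and Gfra3 did not pass. The median log2 fold change of the 8 genes, Q84 over WT, was -0.26 in the 12 libraries and -0.44 in the 10, against 0.01 over all genes in each. All 8 passed the filter on low counts. Where groups are said below not to overlap, the share of all genes or transcripts doing so was not counted. Such separation is therefore a description only. These are bulk samples, in which fewer cells of a type and less RNA per cell cannot be told apart.

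**Figure D1:**
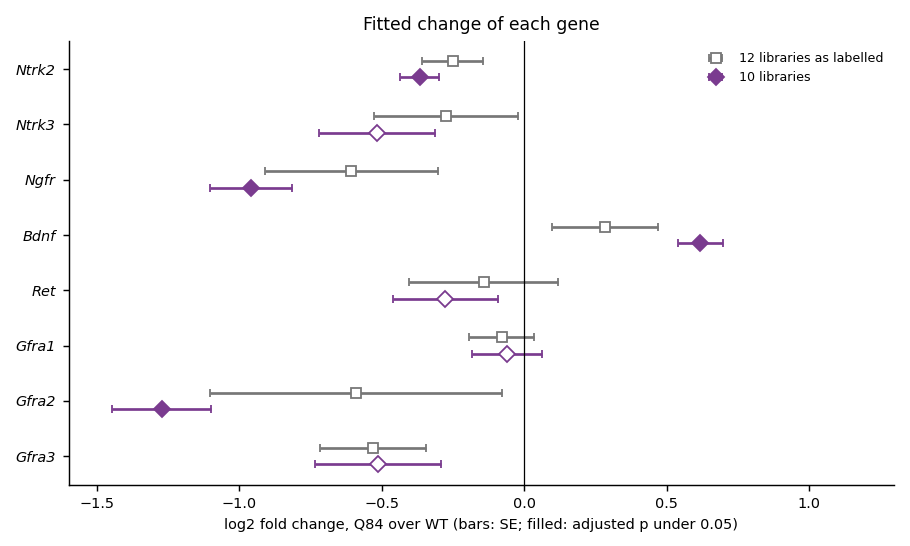
Fitted log2 fold change, Q84 over WT, of each of the 8 genes, with the 12 libraries as labelled (squares) and the 10 libraries (diamonds); bars are the SE and filled symbols passed at an adjusted p under 0.05. Filled diamonds stand left of 0 for Ntrk2, Ngfr and Gfra2 and right of 0 for Bdnf, and no square is filled.

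The levels of the receptors and of Bdnf set the scale for these differences. Per length, as TPM (counts divided by length and scaled to a fixed total) averaged over 5 libraries, the order in the Q84 ganglia was Ret (49.7), Gfra1 (35.2), Ntrk2 (26.7), Bdnf (20.4), Gfra3 (17.0), Ntrk3 (13.1), Ngfr (12.3) and Gfra2 (9.57). In the 5 WT ganglia it was Ret (66.2), Gfra1 (42.9), Ntrk2 (34.3), Gfra3 (26.2), Ngfr (24.2), Gfra2 (22.8), Ntrk3 (20.6) and Bdnf (13.7). Neighbours in the Q84 order overlapped in their range over libraries apart from Ntrk2 with Bdnf and Ngfr with Gfra2, and in the WT order all neighbours overlapped apart from Ntrk3 with Bdnf. Bdnf thus stood after Ntrk2 in Q84 ganglia and last of the 8 in WT ganglia.

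Ntrk2, on chromosome 13, encodes TrkB, the receptor of BDNF. Its level was 123 CPM (scaled with TMM over the 12 libraries) in Q84 male 1 and 110, 114, 113 and 120 CPM in Q84 females 1 to 4. It was 137, 162 and 151 CPM in WT males 1 to 3 and 149 and 155 CPM in WT females 1 and 3. In CPM, every one of these Q84 libraries lay below every one of these WT libraries. Per length the groups overlapped, with 31.3 TPM in Q84 male 1 and 30.4 TPM in WT male 1. Q84 female 5, at 167 CPM, was above all WT libraries, and WT female 2, at 137 CPM, was at the lower end of them. The log2 fold change was -0.37 ± 0.069 (SE, adjusted p = 0.00790, edgeR) in the 10 libraries and -0.25 ± 0.11 (adjusted p = 0.306) in the 12. Without WT female 3 the 10-library call was lost (adjusted p = 0.0524), and with the replicate number as a block as well (adjusted p = 0.0546).

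Of the Ntrk2 transcripts, the kinase-coding Ntrk2-201 fell and the truncated ones did not pass the test. Ntrk2-201 stood at 26.1 CPM in Q84 male 1 and at 20.1, 23.8, 23.7 and 23.9 CPM in Q84 females 1 to 4. It stood at 45.1, 63.9 and 68.2 CPM in WT males 1 to 3 and at 57.4 CPM in both WT females 1 and 3. The groups do not overlap, and the log2 fold change was -1.25 ± 0.13 (SE, adjusted p = 0.00189, edgeR over 62381 transcripts, of which 1.06% passed, 10 libraries). Ntrk2-201 was at 80.2 CPM in Q84 female 5, above every WT library, and at 33.4 CPM in WT female 2, between the groups. With all 12 libraries the value was -0.67 ± 0.40 (adjusted p = 0.659), and -1.12 (adjusted p = 0.0128) once Q84 female 5 was left out.

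Truncated Ntrk2-202, with the largest share of the gene's counts, averaged 79.0 ± 3.56 CPM in Q84 and 77.3 ± 7.89 CPM in WT ganglia (SD, n = 5 each). Its log2 fold change was 0.06 ± 0.094 (SE, adjusted p = 0.892), and that of Ntrk2-204 was -0.06 ± 0.26 (adjusted p = 0.971). Summed, the 2 kinase-coding transcripts averaged 23.9 ± 2.19 CPM in Q84 and 59.5 ± 9.26 CPM in WT ganglia, a ratio of 0.403. The 5 truncated transcripts together averaged 92.0 ± 3.87 CPM in Q84 and 91.3 ± 6.34 CPM in WT ganglia, and overlapped.

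**Figure D2:**
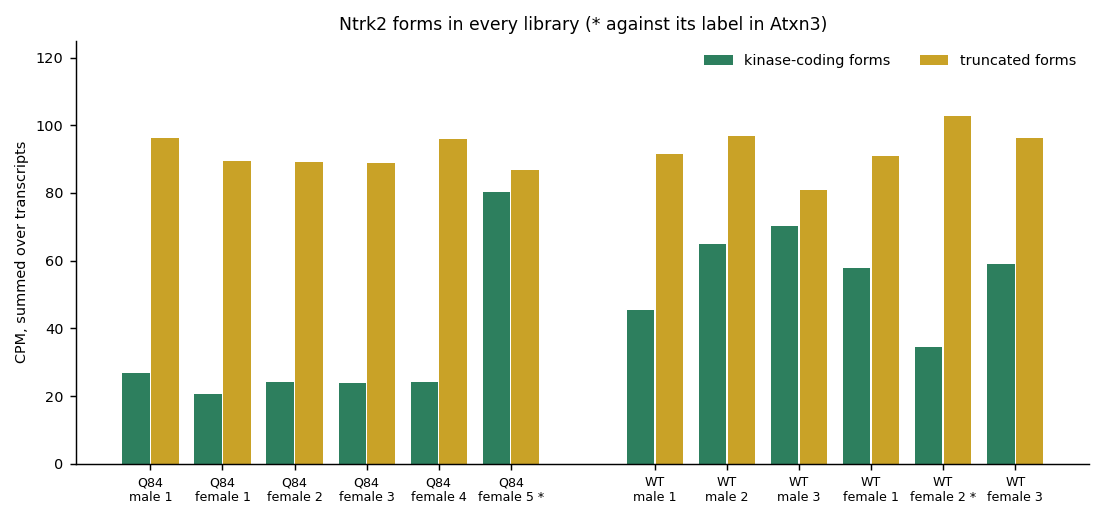
Summed CPM of the 2 kinase-coding and the 5 truncated Ntrk2 transcripts in each of the 12 libraries, Q84 left and WT right; an asterisk marks the 2 libraries that go against their label in Atxn3. Kinase-coding bars lie between 20.6 and 26.8 CPM in the 5 other Q84 libraries and between 45.5 and 70.2 CPM in the 5 other WT libraries, while truncated bars overlap.

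The share of Ntrk2 estimated counts on truncated forms was compared as well. It is made from the same transcript counts as the values above and is no separate result. It was 78.2% in Q84 male 1 and 81.3, 78.5, 78.8 and 79.8% in Q84 females 1 to 4. It was 66.7, 59.8 and 53.5% in WT males 1 to 3 and 61.1 and 61.9% in WT females 1 and 3. All 5 Q84 shares lay above all 5 WT shares. Q84 female 5 had the lowest share of the 12, 51.9%, and WT female 2 had 74.9%, above the other WT libraries. The difference of the means was 18.7 percentage points in the 10 libraries (two-sided exact permutation p = 0.00794, the smallest possible with 5 against 5, and 0.0159 adjusted over the 4 shares tested). In the 12 libraries it was 11.7 points (exact permutation p = 0.0584, adjusted 0.117), and without Q84 female 5 it was 16.3 points (exact permutation, adjusted p = 0.0173). The division of reads between transcripts is the authors' estimate, and its own uncertainty is not in these tests.

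Ntrk3, on chromosome 7, encodes TrkC, the receptor of neurotrophin-3. Its level was 110 CPM in Q84 male 1 and 89.6, 135, 151 and 107 CPM in Q84 females 1 to 4. In WT males 1 to 3 it was 116, 221 and 190 CPM, and in WT females 1 and 3 it was 161 and 164 CPM. The groups overlap through WT male 1, and Q84 female 5, at 233 CPM, was the highest of all libraries, with WT female 2 at 143 CPM. The log2 fold change was -0.52 ± 0.20 (SE, adjusted p = 0.185, edgeR, 10 libraries) and -0.27 ± 0.25 (adjusted p = 0.679, 12 libraries). In length-scaled TPM the 10-library value was -0.57, which passed (adjusted p = 0.0280). Per length the 5 Q84 libraries (11.4 to 15.2 TPM) lay below the 5 WT libraries (15.9 to 24.8 TPM). The kinase-coding Ntrk3-201, of 19703 bases, took 94.1% of the gene's counts, with a log2 fold change of -0.50 ± 0.23 (adjusted p = 0.458). Per length, Ntrk3-201 averaged 7.57 of the gene's 13.1 TPM in Q84 and 11.6 of 20.6 TPM in WT ganglia (5 libraries each). The truncated share was 3.99 ± 1.08% in Q84 and 3.03 ± 0.653% in WT ganglia (SD over 5 libraries each; exact permutation test, two-sided, p = 0.127).

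Ngfr, on chromosome 11, encodes the neurotrophin receptor of the tumour necrosis factor receptor family. It was at 26.4 CPM in Q84 male 1 and at 25.1, 30.1, 28.7 and 37.1 CPM in Q84 females 1 to 4. It was at 42.8, 55.3 and 67.9 CPM in WT males 1 to 3 and at 56.2 and 56.8 CPM in WT females 1 and 3. All 5 Q84 values lay below all 5 WT values, and the ratio of the means was 0.528. Q84 female 5, at 81.3 CPM, again exceeded every WT library, and WT female 2, at 51.2 CPM, lay among the WT libraries. Its log2 fold change was -0.96 ± 0.14 (SE, adjusted p = 0.00195, edgeR) in the 10 libraries and -0.61 ± 0.30 (adjusted p = 0.392) in the 12. All of its counts fell on 1 transcript, Ngfr-201, whose own fit gave -0.94 ± 0.16 (adjusted p = 0.0229). That transcript call was lost without any of 5 libraries in turn (Q84 male 1, Q84 females 2 and 3, WT females 1 and 3; adjusted p 0.0508 to 0.106).

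**Figure D3:**
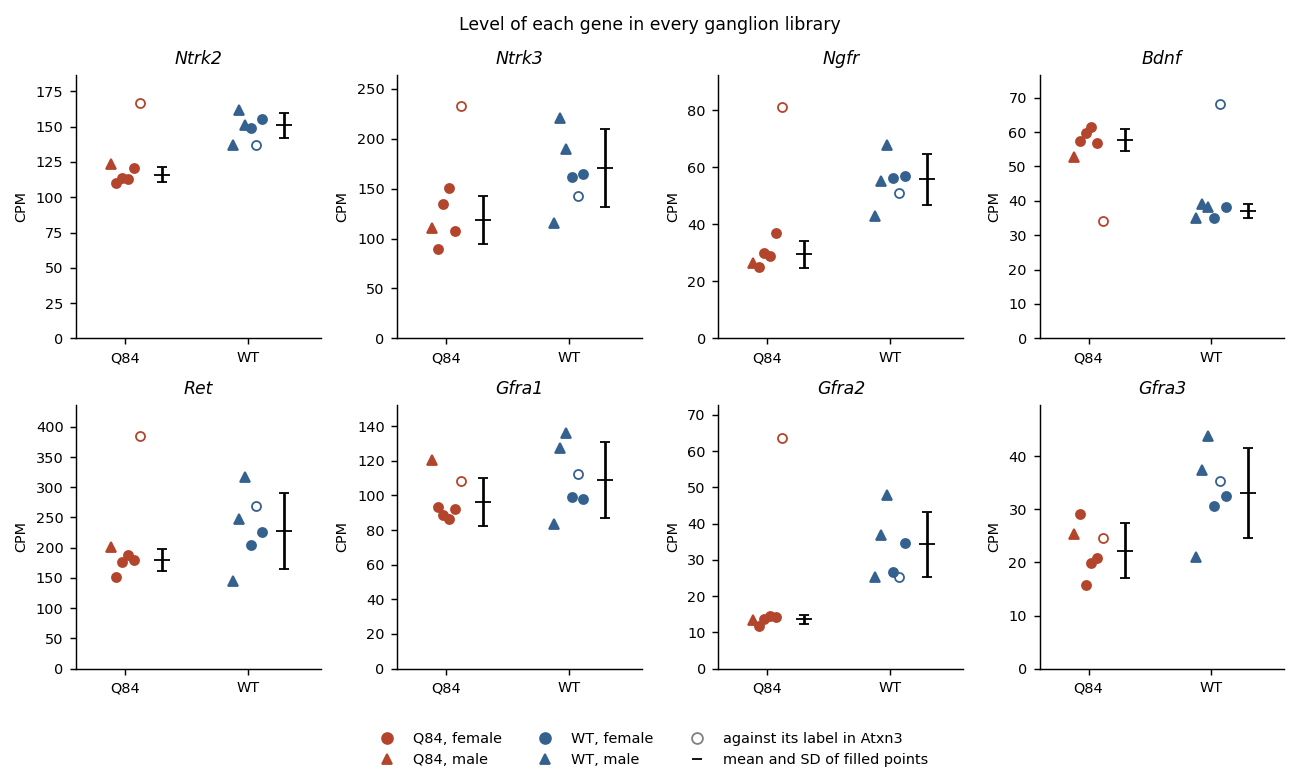
CPM of each of the 8 genes in every library, Q84 left and WT right (triangles male, circles female); open circles are the 2 libraries that go against their label in Atxn3, and the line with caps is the mean and SD of the 5 filled points. Filled points do not overlap for Ntrk2, Ngfr, Gfra2 and Bdnf, and the share of all genes without overlap was not counted. The open Q84 point is the highest of its panel for Ntrk2, Ntrk3, Ngfr, Ret and Gfra2 and the lowest for Bdnf.

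Ret encodes the kinase shared by the GDNF family. Its level was 202 CPM in Q84 male 1 and 152, 176, 188 and 179 CPM in Q84 females 1 to 4. In WT males 1 to 3 it was 145, 247 and 316 CPM, and in WT females 1 and 3 it was 204 and 226 CPM. WT male 1 lay below all Q84 libraries and the groups overlap. Q84 female 5 held 385 CPM, the highest of the 12, and WT female 2 held 269 CPM. The log2 fold change was -0.28 ± 0.18 (SE, adjusted p = 0.458, edgeR, 10 libraries) and -0.14 ± 0.26 (adjusted p = 0.858, 12 libraries). Without WT male 1 the 10-library value was -0.36, which passed (adjusted p = 0.0276). Of the transcripts, Ret-201 changed by -0.21 ± 0.17 (adjusted p = 0.716) and Ret-202 by -0.33 ± 0.26 (adjusted p = 0.730) in the fitted log2 values, neither past the test. The share of the shorter-tailed Ret-202 was 34.5 ± 3.62% in Q84 and 36.0 ± 4.47% in WT ganglia (SD over 5 libraries each; exact permutation test, two-sided, p = 0.571). In the 8 female libraries as labelled it differed by -5.04 points. There the exact permutation p was 0.0357, the smallest possible with 5 against 3, and 0.143 adjusted over the 4 shares.

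Of the co-receptors, Gfra2 had the largest difference among the 8 genes in the 10 libraries. It lies on chromosome 14 and encodes the receptor of neurturin. It was at 13.4 CPM in Q84 male 1 and at 11.7, 13.8, 14.6 and 14.2 CPM in Q84 females 1 to 4. It was at 25.4, 36.9 and 47.8 CPM in WT males 1 to 3 and at 26.7 and 34.6 CPM in WT females 1 and 3. The 5 Q84 libraries lay close together and below every WT library, with a ratio of the means of 0.395. Q84 female 5 held 63.6 CPM, above every WT library, and WT female 2 held 25.3 CPM, just under the lowest of the other WT libraries. On the log2 scale the change was -1.27 ± 0.17 (SE, adjusted p = 0.00107, edgeR) in the 10 libraries and -0.59 ± 0.51 (adjusted p = 0.659) in the 12. Leaving out Q84 female 5 alone gave -1.19 (adjusted p = 0.00143). Its leading transcript Gfra2-201 had a log2 fold change of -1.46 ± 0.26 (adjusted p = 0.0339, 10 libraries), a call that was lost without any of 8 libraries in turn (all but WT males 1 and 3; adjusted p 0.0655 to 0.183).

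Gfra1, the receptor of GDNF on chromosome 19, gave the smallest difference. Its level was 120 CPM in Q84 male 1 and 93.6, 88.7, 86.4 and 92.5 CPM in Q84 females 1 to 4. It was 83.8, 127 and 136 CPM in WT males 1 to 3 and 99.1 and 98.0 CPM in WT females 1 and 3. The 2 libraries that went against their labels lay within these ranges, at 108 CPM in Q84 female 5 and 112 CPM in WT female 2. Fitted, the change was -0.06 ± 0.12 on the log2 scale (SE, adjusted p = 0.848, edgeR, 10 libraries) and -0.08 ± 0.11 (adjusted p = 0.812, 12 libraries). Its leading transcript Gfra1-201 stood at -0.07 ± 0.14 (adjusted p = 0.917, 10 libraries).

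Gfra3, the receptor of artemin on chromosome 18, was at 25.4 CPM in Q84 male 1 and at 29.2, 15.7, 19.9 and 20.9 CPM in Q84 females 1 to 4. It was at 20.9, 37.4 and 43.8 CPM in WT males 1 to 3 and at 30.7 and 32.6 CPM in WT females 1 and 3. WT male 1 lay within the Q84 range, and the other 4 WT libraries above it. Q84 female 5 held 24.7 CPM, within the Q84 range, and WT female 2 held 35.5 CPM, within the WT range. The log2 fold change was -0.51 ± 0.22 (SE, adjusted p = 0.225, edgeR, 10 libraries) and -0.53 ± 0.19 (adjusted p = 0.222, 12 libraries). Without WT male 1 the 10-library value was -0.60, which passed (adjusted p = 0.0387). Gfra3-201, its only transcript with counts, had a log2 fold change of -0.49 ± 0.23 (adjusted p = 0.462).

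Bdnf, on chromosome 2, encodes the TrkB ligand made by a subset of sensory neurons, and it was the only one of the 8 that was higher in Q84 ganglia. Its level was 52.8 CPM in Q84 male 1 and 57.4, 59.6, 61.5 and 56.9 CPM in Q84 females 1 to 4. In WT males 1 to 3 it was 35.0, 39.1 and 38.1 CPM, and in WT females 1 and 3 it was 34.9 and 38.3 CPM. The groups do not overlap, and the ratio of the means was 1.55. Q84 female 5, at 34.2 CPM, was the lowest of all libraries, and WT female 2, at 68.0 CPM, was the highest. Bdnf thus had a fitted log2 difference of 0.62 ± 0.078 (SE, adjusted p = 5.43e-04, edgeR) in the 10 libraries and 0.28 ± 0.19 (adjusted p = 0.533) in the 12.

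Bdnf transcripts start at several promoters, and each first exon is spliced to a shared exon that holds most of the coding sequence. Of the 5 transcripts with at least 5% of the gene's counts, Bdnf-209 passed. Bdnf-209 was at 14.4 CPM in Q84 male 1 and at 16.3, 16.0, 13.8 and 15.3 CPM in Q84 females 1 to 4. It was at 7.51, 7.81 and 7.86 CPM in WT males 1 to 3 and at 7.04 and 7.56 CPM in WT females 1 and 3. Q84 female 5 held 6.93 CPM, the lowest value, and WT female 2 held 14.6 CPM, within the Q84 range. Its fitted log2 fold change was 1.03 ± 0.097 (SE, adjusted p = 0.00113, edgeR, 10 libraries) and 0.62 ± 0.24 (adjusted p = 0.456, 12 libraries).

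Bdnf-205, which held 47.3% of the gene's counts, averaged 24.6 ± 2.31 CPM in Q84 and 19.6 ± 1.88 CPM in WT ganglia (SD over 5 libraries each), or 0.35 ± 0.11 as a log2 fold change (adjusted p = 0.229). Bdnf-210 averaged 7.68 ± 1.34 CPM in Q84 and 3.59 ± 1.02 CPM in WT ganglia without overlap, and its log2 fold change of 1.05 ± 0.23 missed the threshold in edgeR (adjusted p = 0.0675) and passed in limma-voom (adjusted p = 0.0470). Bdnf-207 and Bdnf-201 had log2 fold changes of 1.36 ± 0.33 (adjusted p = 0.108) and 0.15 ± 0.22 (adjusted p = 0.877). Bdnf-207 passed when WT male 2 was left out of the 10 libraries (adjusted p = 0.0417), and Bdnf-210 when WT male 1 was (adjusted p = 0.0361). In the 12 libraries none of these transcripts passed (edgeR, adjusted p 0.544 to 0.927). The values there were 0.08 ± 0.16 for Bdnf-205, 0.59 ± 0.30 for Bdnf-210, 0.81 ± 0.38 for Bdnf-207 and -0.10 ± 0.21 for Bdnf-201. Counted from the most upstream start, that of Bdnf-201, Bdnf-207 and Bdnf-210 start 1197 bases downstream, Bdnf-209 17736 bases and Bdnf-205 18863 bases.

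**Figure D4:**
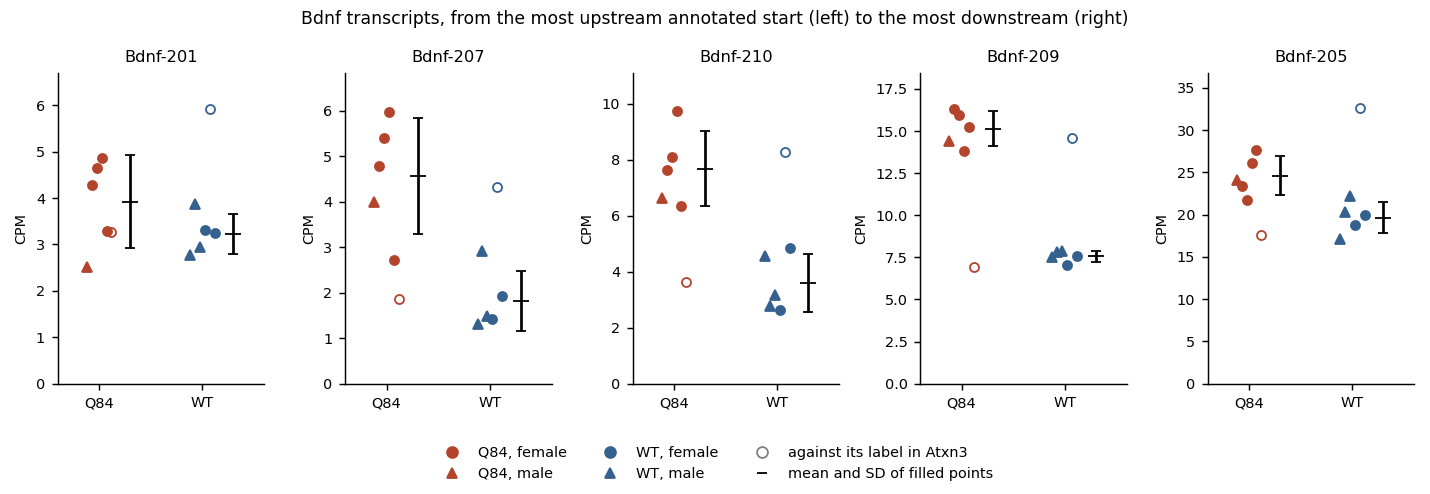
CPM of the 5 Bdnf transcripts with at least 5% of the gene's counts, ordered from the most upstream annotated start to the most downstream, in Q84 (left) and WT (right) libraries; symbols as in the plot of the 8 genes by library. The filled points of Bdnf-210 and Bdnf-209 do not overlap, and in both the open Q84 circle lies within or below the WT range and the open WT circle within the Q84 range.

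The promoter of Bdnf-209 is shown because it was the only Bdnf transcript to pass the test. Its annotated start coincides with that of a RefSeq promoter (GRCm38.p6, plus strand, chr2:109692186-109692485), which runs from 250 bases before the start to 50 after it. Capitals mark the match to TGACG, the core of the cAMP response element bound by CREB, which here lies on the reverse strand 35 bases upstream of the start.
Bdnf-209 promoter: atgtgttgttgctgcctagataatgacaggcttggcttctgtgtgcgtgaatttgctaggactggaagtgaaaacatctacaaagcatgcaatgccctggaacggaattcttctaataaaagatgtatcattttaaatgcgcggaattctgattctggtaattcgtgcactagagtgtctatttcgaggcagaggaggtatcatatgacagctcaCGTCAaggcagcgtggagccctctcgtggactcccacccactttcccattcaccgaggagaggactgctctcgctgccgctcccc
TGACG, searched on both strands, was in 1 of the 7 Bdnf promoters of the table and in 20.8% of all 32817 promoters of the same length. The full palindrome TGACGTCA, which contains TGACG, was in 0 of the 7 and in 1.79% of all. These matches describe the letters of the windows only.

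The make-up of Bdnf shifted with these differences. The leading transcript Bdnf-205 held 45.6% of Bdnf counts in Q84 male 1 and 40.8, 36.5, 42.4 and 48.6% in Q84 females 1 to 4. It held 48.9, 51.9 and 58.1% in WT males 1 to 3 and 53.6 and 52.2% in WT females 1 and 3. All 5 Q84 shares lay below all 5 WT shares, while Q84 female 5 had 51.3% and WT female 2 had 47.9%. The difference of the means was -10.2 percentage points in the 10 libraries (two-sided exact permutation p = 0.00794, adjusted 0.0159) and -7.89 points in the 12 (exact permutation p = 0.0152, adjusted 0.0606).

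**Figure D5:**
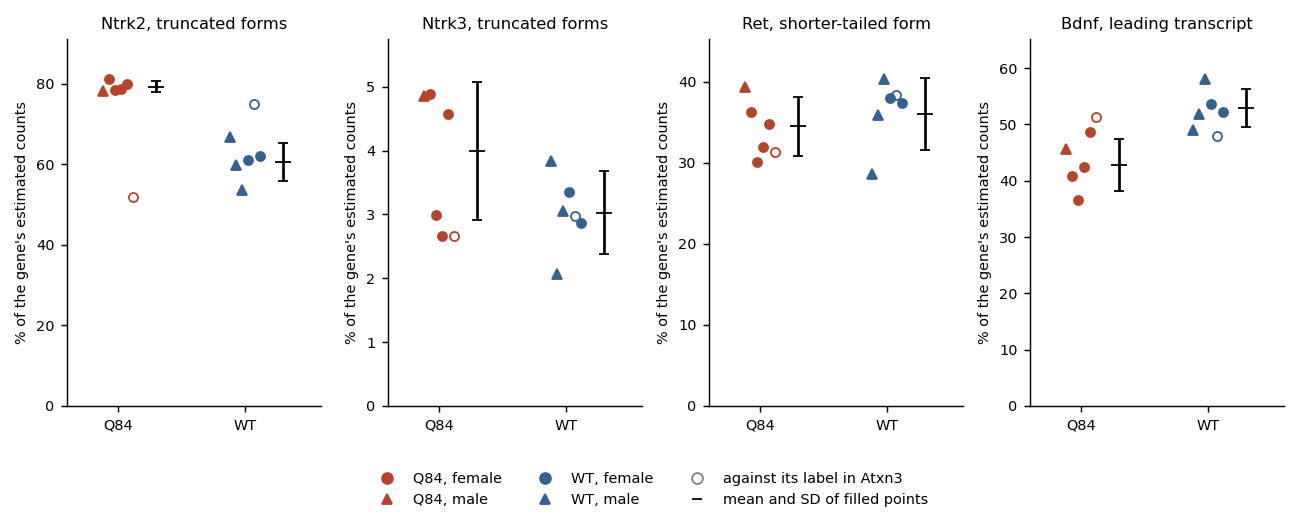
Share of each gene's estimated counts, in percent, on truncated Ntrk2 and Ntrk3 forms, on the shorter-tailed Ret form (of the 2 coding forms) and on the leading Bdnf transcript, in Q84 (left) and WT (right) libraries; symbols as in the plot of the 8 genes by library. The filled Q84 points lie above the filled WT points for Ntrk2 (78.2 to 81.3% in Q84 and 53.5 to 66.7% in WT ganglia) and below them for Bdnf, and overlap for Ntrk3 and Ret.

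Over all 57 listed transcripts of the 8 genes, 41 passed the filter. In the 10 libraries 4 of them passed, where 1.06% of all transcripts did. Bdnf-209 rose and 3 fell, Ntrk2-201, Ngfr-201 and Gfra2-201, where 0.17% of 62381 transcripts were called higher and 0.895% lower. In the 12 libraries 0 of the 41 passed in edgeR, with 8 at an unadjusted p under 0.05, where 9.24% of all transcripts were, and edgeR and limma-voom each called 0 of all 63571 transcripts.

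No difference between the sexes passed among the 8 genes. The genotype by sex interaction gave adjusted p of 0.906 to 0.988 for the 8 genes (edgeR), where 0.0424% of genes passed, and it rests on the single Q84 male. Male against female passed for 0 of the 8, where 0.0636% of genes passed. In the female libraries alone, without the 2 that went against their label, the 4 genes called in the 10 libraries also passed, where 5.12% of 17398 genes did.

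Other genes of the pathway, taken from lists by role, are given next for the 10 libraries. There, 4.93% of all genes tested were called lower and 1.52% higher, so 1 gene called in a short list is not a result about that list. Of 8 other ligands 6 were tested and 1 fell, Ntf3, which encodes neurotrophin-3, the TrkC ligand. Ntf3 averaged 0.343 ± 0.118 CPM in Q84 and 1.04 ± 0.210 CPM in WT ganglia (SD, n = 5 each) without overlap, and its fitted change was -1.58 ± 0.32 on the log2 scale (adjusted p = 0.0113, edgeR; SE). The list's median log2 fold change was -0.34. Of 16 other receptors and partners 15 were tested, with a median of 0.12, and 1 fell, Rtn4r, the Nogo receptor, which signals together with Ngfr. Rtn4r averaged 0.462 ± 0.088 CPM in Q84 and 1.18 ± 0.281 CPM in WT ganglia, which is -1.46 ± 0.24 on the log2 scale (adjusted p = 0.00320).

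Downstream, 4 of 40 adaptors and kinases fell and 1 rose, where 4.93% of all genes were called lower and 1.52% higher. The list's median log2 fold change was -0.02. Pik3r1, a regulatory subunit of phosphoinositide kinase, averaged 143 ± 9.15 CPM in Q84 and 232 ± 19.4 CPM in WT ganglia (SD over 5 libraries each), which is -0.71 ± 0.079 on the log2 scale (adjusted p = 2.64e-04, edgeR; SE). Dok4, an adaptor that binds Ret, averaged 55.6 ± 8.47 CPM in Q84 and 109 ± 19.7 CPM in WT ganglia (-0.90 ± 0.15 on the log2 scale, adjusted p = 0.00339). Shc1, an adaptor of Trk receptors and Ret, averaged 68.6 ± 7.50 CPM in Q84 and 108 ± 18.4 CPM in WT ganglia (-0.71 ± 0.13, adjusted p = 0.00537). Grb10, an adaptor of receptor tyrosine kinases, rose, with 44.4 ± 1.21 CPM in Q84 and 33.3 ± 3.98 CPM in WT ganglia (adjusted p = 0.0303).

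Among 15 negative regulators, with a median of -0.02, 1 fell, the ubiquitin ligase gene Nedd4l, with 63.4 ± 4.33 CPM in Q84 and 109 ± 25.5 CPM in WT ganglia (SD, n = 5 each; log2 fold change -0.74 ± 0.16, adjusted p = 0.0194, edgeR). Among 12 targets and downstream transcription factors, with a median of -0.05, 1 fell, the immediate early gene Arc. Over all genes, 4.93% were called lower in the 10 libraries. Arc was low throughout, at 0.113 ± 0.045 CPM in Q84 and 0.410 ± 0.139 CPM in WT ganglia (log2 fold change -1.53 ± 0.33, adjusted p = 0.0158, edgeR). Other immediate early genes of that list went the other way without passing. These were Egr1 (0.99 ± 0.32, adjusted p = 0.104), Fos (0.64 ± 0.23, adjusted p = 0.141) and Egr2 (0.58 ± 0.30, adjusted p = 0.323). Of the 12 targets, 6 had a log2 fold change below 0. In the 12 libraries as labelled edgeR called 0 genes of any of these 5 lists, with 1 ligand, 1 other receptor, 9 adaptors and kinases, 4 negative regulators and 3 targets at an unadjusted p under 0.05, where 14.3% of all genes were.

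Among markers of sensory neuron types, too, genes fell in the 10 libraries, where 4.93% of all genes were called lower. Nonpeptidergic nociceptor markers fell in 12 of 16 cases, with a median log2 fold change of -1.04, and their summed level was 707 to 933 CPM in the 5 Q84 and 1047 to 1921 CPM in the 5 WT libraries. It was 1785 CPM in Q84 female 5 and 1468 CPM in WT female 2. Peptidergic nociceptor markers fell in 6 of 10 cases (1670 to 2352 CPM in Q84 and 2896 to 3460 CPM in WT libraries), C-fibre touch neuron markers in 2 of 6 (217 to 264 CPM in Q84 and 284 to 572 CPM in WT libraries) and myelinated neuron markers in 5 of 12 (1474 to 1952 CPM in Q84 and 1926 to 2610 CPM in WT libraries). Of 14 pan-neuronal markers 1 fell, with a median log2 fold change of -0.14 and a summed level of 10036 to 10652 CPM in Q84 and 10166 to 12567 CPM in WT libraries.

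None of 8 satellite glia markers (1929 to 2296 CPM in Q84 and 2136 to 2493 CPM in WT libraries) and none of 10 myelinating Schwann cell markers (2511 to 4319 CPM in Q84 and 2756 to 4607 CPM in WT libraries) passed in edgeR, with 1 and 0 at an unadjusted p under 0.05, where 20.2% of all genes were. Of the 5 nonmyelinating Schwann cell markers 1 rose and 1 fell, and of the 8 fibroblast markers 1 rose. Over all genes, 1.52% were called higher and 4.93% lower. Summed red blood cell genes ran from 467 to 1852 CPM in Q84 and from 175 to 1046 CPM in WT libraries, and skeletal muscle genes from 3.29 to 1032 CPM in Q84 and from 3.56 to 296 CPM in WT libraries. Adipocyte genes summed to 5.21 to 78.7 CPM in Q84 and 4.15 to 11.8 CPM in WT libraries, with 1 of 8 called higher, and the 13 mitochondrially encoded genes to 86195 to 114910 CPM in Q84 and 68514 to 95277 CPM in WT libraries, with 1 called higher. None of 8 endothelial, 8 macrophage, 7 red blood cell and 8 muscle genes passed in edgeR, with 3, 2, 7 and 0 at an unadjusted p under 0.05. No marker was at 0 in all 12 libraries, and the part of these markers in the results of the 8 genes was not tested.

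Genes whose level ran most closely with each of the 8 were ranked by Pearson r of log2 CPM over the 12 libraries, among 10432 genes averaging 5 CPM or more. All of these correlations share the 2 libraries that went against their labels, and they are descriptions with no test. Ntrk2 ran closest with Pde11a, a cyclic nucleotide phosphodiesterase (r = 0.988), Vav3 (0.984) and Phf24 (0.980). Vav3 averaged 19.3 ± 0.863 CPM in Q84 and 29.1 ± 2.68 CPM in WT ganglia (SD, n = 5 each), without overlap. Ngfr ran closest with Dffa (0.980), 1190002N15Rik (0.971) and the acid-sensing channel gene Asic2 (0.971).

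Gfra2 ran closest with Pitpnc1, a phosphatidylinositol transfer protein gene (0.989), the transcription factor gene Klf7 (0.984) and Asic2 (0.983), all 3 lower in each of the 5 Q84 than in each of the 5 WT libraries. Klf7 averaged 109 ± 7.84 CPM in Q84 and 185 ± 32.3 CPM in WT ganglia. Bdnf ran closest with the cannabinoid receptor gene Cnr1 (0.958), Nell1 (0.953) and Antxr2 (0.936), which were all higher in each of the 5 Q84 libraries. Nell1 averaged 20.4 ± 2.65 CPM in Q84 and 4.51 ± 0.210 CPM in WT ganglia, with 3.48 CPM in Q84 female 5 and 17.2 CPM in WT female 2.

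Among the other members, Ntrk3 ran closest with the potassium channel gene Kcnb2 (0.973), Plxna2 (0.960) and Csmd1 (0.957), and Ret with the metalloprotease gene Adam19 (0.977), Dip2c (0.967) and Abr (0.964). Gfra1 ran closest with the deubiquitinase gene Usp13 (0.979), Tnpo2 (0.972) and Mthfd1l (0.970), and Gfra3 with Serinc2 (0.969), Pik3c3 (0.952) and the lysosomal protease gene Ctsd (0.949). The values of these 12 genes overlapped between the 5 Q84 and the 5 WT libraries, as did those of Ntrk3, Ret, Gfra1 and Gfra3 themselves. Values of the genes named with Ntrk2, Ngfr, Gfra2 and Bdnf did not overlap. Since all were picked by correlation over these same libraries, such likeness is built in and is no separate result.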

How the data were processed

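Deposited tables, 1 per library, hold estimated counts and TPM for 116313 transcripts, per the file headers. Estimated counts, effective lengths and TPM are the authors' own. The length-scaled TPM used as an alternative was computed here from their TPM and effective lengths. STAR 2.7.10b, kallisto 0.46.2 and GRCm39 appear in the submitters' processing notes with no role, and the annotation release was not given in the sources used here. Transcripts were matched by Ensembl identifier to GENCODE M21 (98.3%), and unmatched ones held 0.751 to 0.804% of counts. Estimated counts were summed per gene, rounded, filtered (filterByExpr), scaled (TMM) and tested with edgeR 4.0.16 (quasi-likelihood, sex and genotype, Benjamini-Hochberg over all genes or all transcripts). Alternatives were DESeq2 1.42.0, limma-voom (limma 3.58.1), a replicate block, length-scaled TPM, leaving out each library, and other scalings and filters. The tests were checked on simulated data.

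Forms were called truncated where their coding sequence was under 0.75 of the longest. The permutation tests of shares took no account of sex, which was uneven between the genotypes. Named were the 8 genes, transcripts with 5% of Ntrk2, Ntrk3, Ret or Bdnf, the leading transcript of the others, list genes that passed, and the 3 most correlated genes of each. Members, lists and the choice of the 10 libraries were made with earlier results of these data known. No 2 libraries of a group agreed within sampling noise (chi-square per degree of freedom 28.9 or more). Some genes of these pathways are not reported here, or only within the counts of their list.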

Additional observations from a re-analysis of the deposited data

Results flagged for a closer look

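Of 36 groups of 5 or 6 libraries examined, 13 were flagged, where chance flags about 1 in 20. In these the highest or lowest library stood farther from its nearest neighbour than Dixon's criterion allows. Each such library was 1 of the 2 that go against their label in Atxn3. Groups of 5 were the Q84 females, part of the 6 labelled Q84, so flags for the same gene in both repeat 1 library. The library labelled Q84 female 5 was the highest of its labelled group, and also of the Q84 females alone, for Ntrk2 (167.1 CPM, nearest other 123.3 CPM), Ngfr (81.3 CPM, nearest other 37.1 CPM), Ret (384.9 CPM, nearest other 202.0 CPM) and Gfra2 (63.6 CPM, nearest other 14.6 CPM). It was the lowest for Bdnf (34.2 CPM, nearest other 52.8 CPM) and for the share of truncated Ntrk2 forms (51.9%, nearest other 78.2%) in both groupings. The library labelled WT female 2 was the highest of its labelled group for Bdnf (68.0 CPM, nearest other 39.1 CPM). Whether these libraries carry another genotype than their label was not tested.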

How the results depend on the processing

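In the 10 libraries Ngfr, Gfra2 and Bdnf passed under every alternative, with log2 fold changes of -1.04 to -0.88, -1.40 to -1.14 and 0.56 to 0.70, and Ntrk2 (-0.41 to -0.30) under all but the replicate block and the removal of WT female 3. The 4 genes called became 3 to 6 as each library was left out. Genes called over the whole table (1208) were 1934 in DESeq2, 701 with the replicate block and 681 to 1978 with 1 library left out (681 without Q84 male 1, 739 without WT female 3, 1978 without WT male 1). In the 12 libraries (1 gene) they were 15 with no filter, 620 in DESeq2, 0 in female libraries, 639 with the block and 0 to 1082 with 1 left out (1082 without Q84 female 5). Of the 8 genes 3 passed with the block and 0 to 3 with 1 left out, the 3 without Q84 female 5. Transcripts called in the 10 libraries (664) were 99 with the block and 275 to 934 with 1 left out, and in the 12 (0) they were 0 to 523. Single-transcript values changed sign, never past the threshold: in the 12 libraries, Ntrk2-202 (-0.013 with the block, -0.011 to 0.082 with 1 left out), Bdnf-201 (0.11 and -0.22 to 0.13), Ret-201 (-0.3 to 0.051 with 1 left out) and Bdnf-205 (-0.0051 to 0.31); in the 10, Ntrk2-204 (0.0059 and -0.34 to 0.038). The interaction of Ret turned to 0.032 in limma-voom. With the block the 10-library transcript calls of Gfra2-201 (adjusted p = 0.233) and Ngfr-201 (0.0720) were lost, as was that of Gfra2-201 in limma-voom (0.0709). Shares differed by 18.7 points for Ntrk2 and -10.2 for Bdnf in the 10 libraries, past the test. In the 12 with 1 left out the Ntrk2 share differed by 9.85 to 16.3 points, past the test without Q84 female 5. That of Bdnf differed by -9.32 to -6.35, past it without Q84 female 5 and without WT female 2 (-8.72). Neither passed in the 8 female libraries as labelled, which include the 2 that go against their label. There the difference was 8.08 points for Ntrk2 (exact permutation, adjusted p = 0.571) and -7.29 for Bdnf (0.214). Same-numbered libraries deviated from their group means with r of -0.128 to 0.239. Since no differently numbered libraries were set beside them, these values cannot decide whether the numbers pair libraries. The block absorbs the Q84 libraries whose number no other library has. Causes of these changes were not tested. With 5 libraries a group and 1 Q84 male, a log2 fold change as small as the -0.06 ± 0.12 (SE) of Gfra1 could not be told from no difference.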
